A study of Homo sapiens with 5 samples.

Results

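The genes described here are 33 neuroectoderm homeobox and PAX genes of human induced pluripotent stem cells: 8 PAX genes, 8 LHX genes, SIX2, SIX3 and SIX6, 6 DLX genes, 4 NKX genes, 2 OTX genes and 2 EN genes. They were chosen by name. A window of 1000 bases was taken as a member when the deposited table assigned it to one of these symbols or when it overlapped the gene extended by 1500 bases on both sides. All 33 genes were found, with 605 windows among the 288391 of the table, whose windows name 33511 genes. Of the 605 windows, 376 lay at the gene and 229 lay farther away and carried only its symbol; 71 of the latter belonged to NKX6-2.

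DNA methylation was measured by reduced representation bisulfite sequencing (RRBS), in which a restriction enzyme enriches CpG-rich DNA and bisulfite converts unmethylated cytosines. The cells were the established line 201B7 (HPS0063), labelled WT and grown without feeder cells. For 48 h they received the vehicle, 0.1% DMSO, or a chemical: etoposide at 1 nM, 5-aza-dc at 10 nM, and propyl gallate and theophylline at 1 µM each. Each condition gave 1 library. Etoposide is a topoisomerase II poison, propyl gallate an antioxidant, theophylline a methylxanthine, and 5-aza-dc a cytidine analogue that inhibits DNA methyltransferases. The values are β-values, the share of methylated calls in a window, given as percent. No difference between conditions could be compared with a spread between replicates, and all 4 comparisons used the same vehicle control. Intervals are 95% counting intervals, which treat each call as independent and hold no spread between replicates. Calls that share a DNA molecule, or its PCR copies, are not independent, which makes these intervals too narrow even for counting error.

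Homeobox and PAX genes encode transcription factors that divide the early embryo into regions and fix the fate of cells in the neural plate, the eye, the brain and the spinal cord. In pluripotent cells most of them are held silent by Polycomb complexes while their CpG islands stay free of DNA methylation, often over a long stretch around the gene that is called a DNA methylation valley. Not all members act only in the neuroectoderm: PAX1 and PAX9 pattern the sclerotome and the pharyngeal pouches, PAX8 the thyroid and kidney, PAX5 the B cell lineage and DLX3 the epidermis and placenta.

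The member windows held between 691185 calls (etoposide) and 859298 calls (vehicle control) per library, with a median of 740 to 940 calls per window, and 6 to 14 of the 605 windows had under 30 calls. The median width of a window's 95% Wilson interval ranged from 3.24 percentage points (vehicle control) to 3.73 (5-aza-dc). The label of the cells was examined at the promoters of 10 pluripotency genes, of which 8 had a promoter window. In the vehicle control 5 of the 8 were under 10%, with DPPA4 at 0.525%, SALL4 at 0.536%, DNMT3B at 1.14%, LIN28A at 2.34% and L1TD1 at 8.74%. PRDM14 (26.7%), ZFP42 (34.8%) and POU5F1 (90.5%) were not low at the start given in the table. For POU5F1 the table gives the outer end of its annotated model. RefSeq places its start 10049 bases further downstream, where the window (chr6:31170001-31171000) was at 0.943% in the vehicle control and between 0.686% and 1.61% in the other libraries. With RefSeq's starts 6 of 8 of these genes were under 10%, PRDM14 at 0.789%, while DPPA4, whose RefSeq start lies 2090 bases upstream, was at 89.1%.

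The promoters of the 33 genes were nearly free of methylation in every library. Over the 71 windows from 1500 bases upstream to 500 bases downstream of a start, the mean β-value was 2.76% in the vehicle control, 2.9% with etoposide, 2.63% with propyl gallate, 3.03% with theophylline and 2.31% with 5-aza-dc. Of these windows 67 were under 10% (mean of the 5 libraries) and none reached 70%. By gene, 30 of the 31 members with a promoter window had a promoter mean under 10% in the vehicle control (96.8%), with a median of 1.77%. By the same definition, 40.9% of the 22182 genes of the table were under 10% and the median gene was at 31.2%. LHX6 and LHX8, which act in interneurons of the forebrain, had no promoter window. The starts are those of the deposited table. RefSeq's outermost starts, an alternative chosen after seeing the data, lay more than 500 bases away for 8 members, and with them 30 of 32 members were under 10%. The 2 others were LHX3 and LHX4, whose window at the RefSeq start was at 90.1%, and LHX6 was then at 1.06%.

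**Figure D1:**
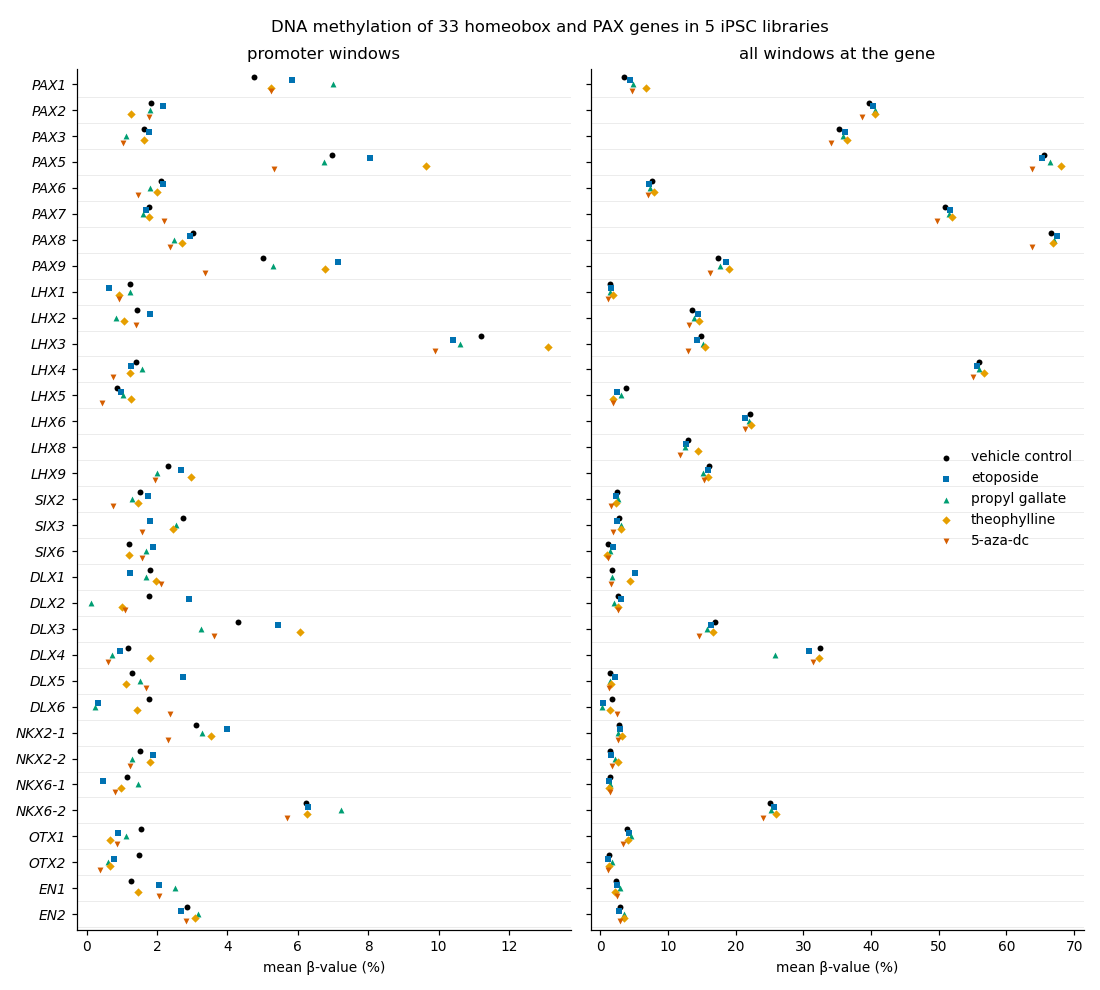
Mean β-value (%) of each gene over its promoter windows (left; LHX6 and LHX8 have none) and over all windows at the gene (right) in the 5 libraries, 1 point per library and no error bars. Nearly all promoter means lie under 10% in all libraries, with LHX3 at the highest values, while the means at the gene reach 66.6% for PAX8.

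The lowest promoter means belonged to LHX5, NKX6-1, DLX4, SIX6, LHX1 and EN1. LHX5, a LIM-homeobox gene of the forebrain, stood at 0.866% in the vehicle control, 0.986% with etoposide, 1.03% with propyl gallate, 1.25% with theophylline and 0.44% with 5-aza-dc. NKX6-1, a ventral spinal cord and pancreas factor, stood at 1.15%, 0.471%, 1.47%, 0.989% and 0.816% in the same order. All values of this group lay under 3% in every library. LHX1, which acts in the head organizer and kidney, was at 1.23%, 0.621%, 1.22%, 0.915% and 0.933%. DLX4 was at 1.17%, 0.949%, 0.719%, 1.8% and 0.612%. The eye gene SIX6 was at 1.2%, 1.88%, 1.7%, 1.21% and 1.56%, and the midbrain and hindbrain gene EN1 was at 1.26%, 2.05%, 2.51%, 1.45% and 2.07%. No library was lowest for all 6 of these genes.

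The highest promoter means belonged to LHX3, PAX5, NKX6-2, PAX9, PAX1 and DLX3. LHX3, a pituitary and motor neuron factor, was at 11.2% in the vehicle control, 10.4% with etoposide, 10.6% with propyl gallate, 13.1% with theophylline and 9.91% with 5-aza-dc. PAX5 was at 6.97%, 8.06%, 6.73%, 9.64% and 5.32% in the same order. The PAX5 mean included a shore window 768 bases downstream of the start, at 18.3% in the vehicle control and 26.3% after theophylline, beside windows as low as 1.1%. NKX6-2, an oligodendrocyte and ventral spinal cord factor, was at 6.23%, 6.29%, 7.24%, 6.25% and 5.7%. PAX9 was at 5.02%, 7.15%, 5.3%, 6.78% and 3.36%, PAX1 at 4.75%, 5.84%, 7%, 5.25% and 5.24%, and DLX3 at 4.31%, 5.43%, 3.26%, 6.05% and 3.63%.

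The remaining 19 promoter means ranged from 1.28% (DLX5, a branchial arch and limb gene) to 3.12% (NKX2-1, a forebrain, thyroid and lung gene) in the vehicle control. Among them were the eye field and forebrain genes PAX6 (2.12%), SIX3 (2.73%), LHX2 (1.43%), OTX1 (1.55%) and OTX2 (1.49%), and the midbrain and hindbrain gene EN2 (2.86%). The interneuron genes DLX1 and DLX2 were at 1.81% and 1.76%. The neural crest and dorsal neural tube genes PAX3 and PAX7 were at 1.62% and 1.77%. PAX2 (1.83%), PAX8 (3.01%), LHX4 (1.39%), LHX9 (2.3%), SIX2 (1.52%), DLX6 (1.78%) and NKX2-2 (1.53%) complete the group.

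RefSeq promoters on GRCh38.p14 were matched for 24 of the 33 genes, 43 sequences in all, and none was given for PAX1, LHX1, LHX5, SIX3, DLX3, DLX4, DLX5, NKX6-2 and EN1. In the 250 bases before the start, the member promoters held a median of 17 CpG (3 to 45) and 63.6% G and C, against 11 CpG and 58% over all 35116 promoters. The sequence CCGG, where the enzyme MspI used in RRBS cuts, stood in 81.4% of them and in 58.5% of all promoters; it reads the same on both strands. The 5 sequences that follow are shown because they span the range of methylation found, each 5′ to 3′ on the strand of the gene with CpG in capitals. The EN2 sequence had the most CpG of the member promoters, the window over the DLX6 sequence had no methylated call, LHX3 is shown at its upstream and downstream promoters, and PAX6 at the internal promoter that stood apart from its others.
EN2 (chr7:155457879-155458128, plus strand): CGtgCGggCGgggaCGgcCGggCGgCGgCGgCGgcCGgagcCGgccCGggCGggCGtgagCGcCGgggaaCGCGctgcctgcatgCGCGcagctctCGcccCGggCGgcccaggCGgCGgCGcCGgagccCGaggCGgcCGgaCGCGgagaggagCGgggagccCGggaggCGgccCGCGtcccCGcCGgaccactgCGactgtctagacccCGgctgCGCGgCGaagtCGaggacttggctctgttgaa
DLX6 (chr7:97005303-97005552, plus strand): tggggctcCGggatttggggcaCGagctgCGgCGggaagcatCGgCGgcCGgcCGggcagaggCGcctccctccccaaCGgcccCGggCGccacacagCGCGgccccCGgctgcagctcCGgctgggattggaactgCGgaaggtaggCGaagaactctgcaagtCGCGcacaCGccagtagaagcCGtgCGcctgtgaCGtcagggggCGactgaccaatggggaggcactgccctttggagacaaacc
LHX3, upstream promoter (chr9:136205129-136205378, minus strand): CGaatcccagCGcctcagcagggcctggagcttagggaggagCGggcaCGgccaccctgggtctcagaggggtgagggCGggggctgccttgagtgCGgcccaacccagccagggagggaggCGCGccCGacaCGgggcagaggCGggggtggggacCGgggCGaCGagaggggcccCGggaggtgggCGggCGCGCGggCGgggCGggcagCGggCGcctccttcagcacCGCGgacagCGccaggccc
LHX3, downstream promoter (chr9:136201675-136201924, minus strand): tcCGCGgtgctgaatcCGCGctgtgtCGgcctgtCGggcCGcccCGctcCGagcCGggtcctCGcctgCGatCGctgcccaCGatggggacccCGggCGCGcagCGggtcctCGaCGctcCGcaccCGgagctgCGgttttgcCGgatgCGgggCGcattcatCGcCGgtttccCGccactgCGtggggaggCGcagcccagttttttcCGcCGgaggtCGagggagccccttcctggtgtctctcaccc
PAX6, internal promoter (chr11:31800662-31800911, minus strand): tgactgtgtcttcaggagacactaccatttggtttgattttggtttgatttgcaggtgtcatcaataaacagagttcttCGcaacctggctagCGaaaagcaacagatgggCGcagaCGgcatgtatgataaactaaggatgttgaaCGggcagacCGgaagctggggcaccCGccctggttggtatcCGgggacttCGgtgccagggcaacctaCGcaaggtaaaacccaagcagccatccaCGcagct

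CpG number did not order these promoters by methylation. EN2, with 45 CpG, was at 2.37% over the windows that hold the sequence in the vehicle control and between 2.42% and 2.85% in the other libraries. The window over the DLX6 sequence, with 25 CpG, had 0 methylated calls in all 5 libraries, but on only 10 to 62 calls, which in the vehicle control (20 calls) allows up to 16.1% by the Wilson interval. The upstream and downstream LHX3 promoters held 26 and 34 CpG and were at 19.6% and 33.9% in the vehicle control. The internal PAX6 promoter, with 11 CpG, was at 14.5% in the vehicle control, 7.27% with etoposide, 15.1% with propyl gallate, 13.4% with theophylline and 14.4% with 5-aza-dc, while the other PAX6 promoters with a window were between 0.62% and 3.52% in the vehicle control.

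Methylation rose with distance from the start. In the vehicle control the mean β-value was 3.11% for the 93 windows within 2000 bases of a start, 12.8% from 2000 to 5000 bases, 16.2% from 5000 to 10000 bases and 36.7% from 10000 to 20000 bases. It reached 76.5% from 20000 to 50000 bases and 81.6% beyond, against 79.4% over all windows of the table. In the 5-aza-dc library the same classes were at 2.65%, 12.3%, 16%, 34.8%, 74.2% and 80.5%, lower in each. These classes also differ in CpG context, since 89 of the 93 nearest windows were in CpG islands and 18 of the 145 farthest.

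**Figure D2:**
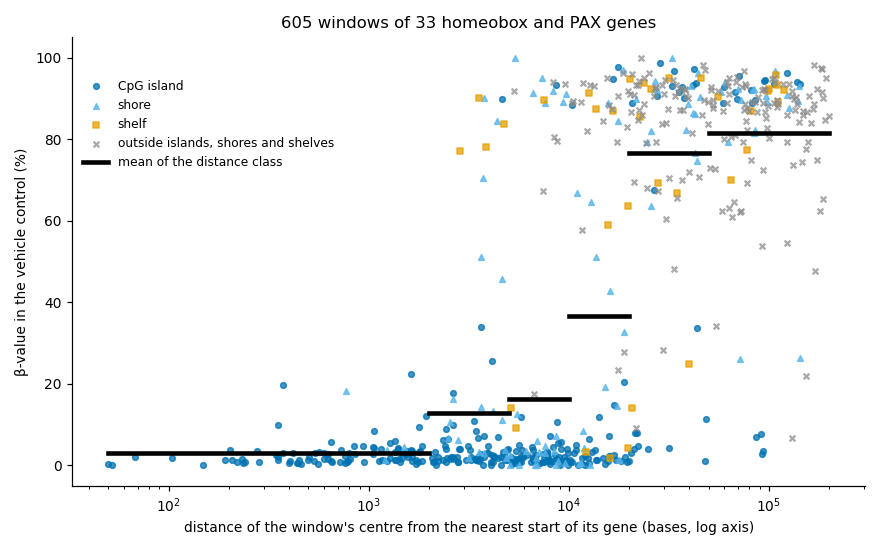
β-value (%) of the 605 member windows in the vehicle control against the distance of the window's centre from the nearest start of its gene (bases, log axis), by CpG context; black bars are the means of the distance classes. Windows within 2000 bases lie close to 0 (mean 3.11%), and those beyond 50000 bases mostly near 90% (mean 81.6%).

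Within a given CpG context the windows at the genes were also less methylated than the table as a whole. Island windows at the genes had a mean of 5.06% in the vehicle control, and 207 of 222 were under 10%, whereas all 49761 island windows averaged 41.5% and 47.8% of them were under 10%. Shores, the flanks of islands, averaged 23.9% at the genes and 82.1% over the table, and shelves, the next flank, 50.3% (10 windows) and 86.9%. Outside these contexts the windows at the genes averaged 79.5% and all windows 88.1%. No test was made of these contrasts between sets of windows.

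Taking all windows at the gene together, the families differed. In the vehicle control SIX2, SIX3 and SIX6 averaged 2.12% over 15 windows, the OTX genes 2.42% over 20, the EN genes 2.51% over 13, the NKX genes 6.53% over 25, the DLX genes 8.18% over 29, the LHX genes 19.3% over 90 and the PAX genes 45.6% over 184. Within the PAX family the genes differed widely: PAX8 was at 66.6%, PAX5 at 65.6% and PAX7 at 50.9%, while PAX6 was at 7.57% and PAX1 at 3.53%. In islands alone the PAX genes were at 8.06%, the NKX genes at 6.39%, the LHX genes at 3.98% and the other families between 2.06% and 2.51%. LHX4 (55.9%) was the LHX gene with the highest mean at the gene, and LHX1 (1.35%) the lowest.

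In all, 15 of the 222 island windows at the genes had a mean of at least 10% (mean of the 5 libraries). They lay at 7 genes: PAX5 (3 windows), PAX7, PAX8 (2), PAX9 (2), LHX3 (4), LHX6 and NKX6-2 (2). Inside PAX8 the islands at chr2:113235001-113236000 and chr2:113236001-113237000, over intron-exon boundaries 43420 and 42420 bases downstream of the start, were at 93.8% and 97.2% in the vehicle control. The PAX7 intronic island at chr1:18716001-18717000 was at 89.5%, and the island of NKX6-2 4646 bases downstream of its start at 89.9%. The LHX6 intronic island at chr9:122225001-122226000 was in between, at 25.7% in the vehicle control, 21% with etoposide, 24.3% with propyl gallate, 23.6% with theophylline and 20.7% with 5-aza-dc.

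Low methylation extended far beyond the promoters. A low-methylated run was defined as the windows under 10% (mean of the 5 libraries), with fewer than 3000 bases between them, that include the window at the start. A measured window of at least 10% ended the run, even where low windows followed it. Of the 30 members whose start was measured, 28 had a low start, with a median run of 10000 bases; 23 runs (82.1%) reached 5000 bases and 15 (53.6%) reached 10000 bases. Among all 20666 genes with a measured start, 12572 had a low start, with a median run of 2000 bases, and 4.7% of these runs reached 5000 bases and 1.1% reached 10000 bases. Counting runs shared by several genes once, the table had 10276 runs, of which 0.827% reached 10000 bases, and the members had 28, all separate. The lengths depend on the permitted gap: when fewer than 1000 bases were allowed, so that only adjoining windows were joined, the member median was 4500 bases and 3 members reached 10000 bases, against 2000 bases and 0.127% of all genes.

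By the mean of the 5 libraries the longest member run, of SIX3, spanned 25000 bases (chr2:44928001-44953000, 19 windows), and no gene of the table had a longer one by this mean; SIX3-AS1 and LINC01833 shared it. SIX3 represses Wnt signalling in the anterior forebrain. EN1 and LHX5 followed with 19000 bases each, then PAX6 with 18000, PAX2 and DLX2 with 15000, and NKX2-2 with 14000 bases. The SIX3 run measured 20000 bases in the vehicle control and after propyl gallate and 25000 bases in the other 3 libraries, whereas DLX1 and DLX2 shared a run of 27000 bases in the vehicle control, propyl gallate and 5-aza-dc libraries. EN1, EN2 (12000), LHX9 (11000), NKX6-1 (9000) and LHX4 (7000) were among those with the same span in all 5 libraries. PAX3 and LHX1 also reached 12000 bases, DLX1 and DLX5 11000, and SIX6 and NKX2-1 10000. Below these were OTX1 (8000), PAX1 (7000), PAX8 and SIX2 (6000 each), PAX5 and DLX3 (5000 each) and PAX7 and DLX4 (4000 each). The PAX7 run ended at shore windows of 12.9% and 17.6% (mean of the 5 libraries). Beyond them the island windows measured in chr1:18636001-18647000 were again under 10%. At NKX6-2 the start window was near the limit, so that its run was 4000 bases in 4 libraries and 0 after propyl gallate, and the starts of LHX2, LHX6 and LHX8 were not measured. The shortest runs belonged to OTX2 and PAX9, with 2000 bases each, and DLX6, with 3000 bases. Most of the OTX2 gene was nonetheless low, with a mean of 1.2% over its 11 windows; the run ended at an interval of 3000 bases without a window.

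**Figure D3:**
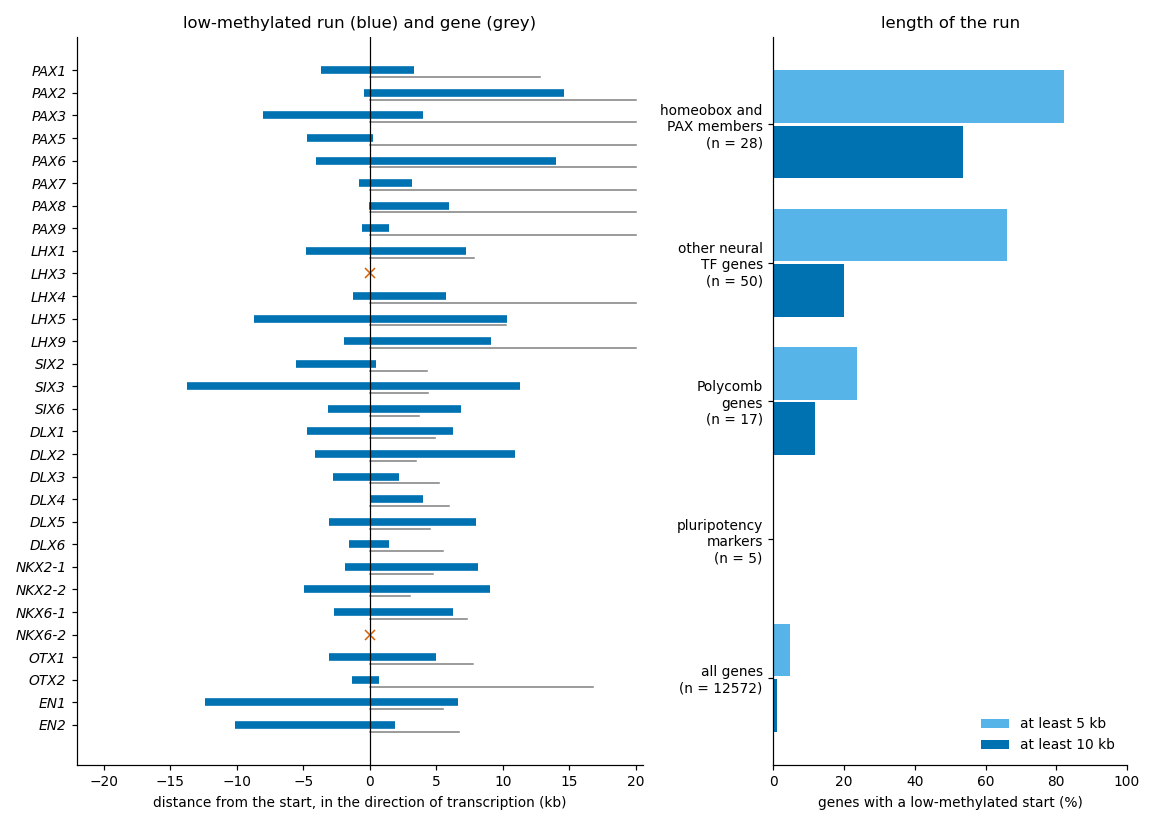
Left, span of the low-methylated run (blue) and of the gene (grey, cut at 20 kb) from the start in the direction of transcription (kb); crosses mark LHX3 and NKX6-2, whose start window was not under 10%. Right, percent of genes with a low start whose run reached 5 kb or 10 kb: 82.1% and 53.6% for the 28 members, 4.7% and 1.1% for all 12572 genes.

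Other gene lists were described in the same way. Of 57 other neural transcription factor genes, 52 had a measured start and 50 of these a low one (96.2%), with a median run of 7000 bases, and 20% of these runs reached 10000 bases. Their windows at the gene averaged 17.8% in the vehicle control, and 47 of 54 promoters were under 10%. Of 23 genes of Polycomb complexes, which silence developmental genes, 21 had a measured start and 17 of these a low one (81%), with a median run of 2000 bases, and 14 of 22 promoters were under 10%. Of the pluripotency genes 5 of 8 measured starts were low (62.5%), with a median run of 3000 bases, and none reached 5000 bases.

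LHX3 was the clearest exception among the members. The window upstream of its start (chr9:136205001-136206000) was at 19.6% in the vehicle control, 16.9% with etoposide, 18.7% with propyl gallate, 20.9% with theophylline and 16% with 5-aza-dc, on 2837 to 3417 calls. The following windows varied without a steady trend in the vehicle control, from 2.82% in the next one to 22.5%, 17.8%, 33.9% and, in a shore, 45.8% at 4628 bases downstream of the start. From 5628 bases on, over the distal part of the gene and the island downstream of it, the 6 windows measured were between 0.428% and 7.09% in the vehicle control. The unmethylated interval of LHX3 thus covered the 3′ part of the gene and not its start.

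**Figure D4:**
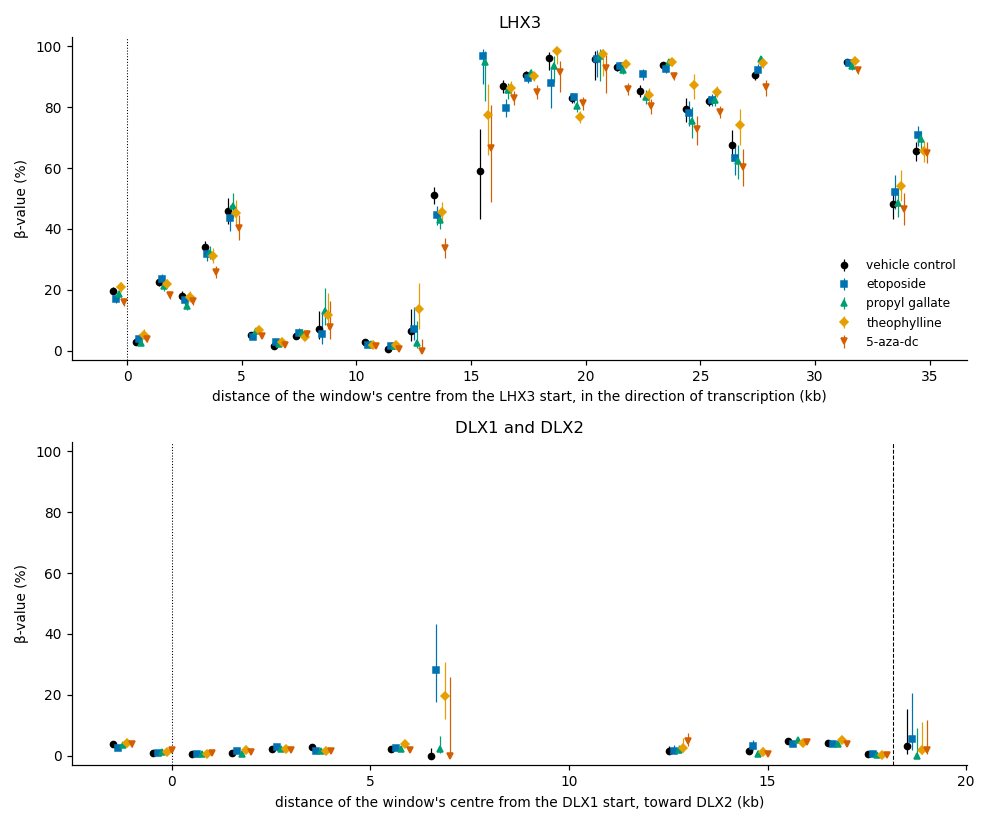
β-value (%) of each window with its 95% Wilson interval in the 5 libraries, by distance from the LHX3 start (top) and from the DLX1 start toward DLX2 (bottom; dashed line, DLX2 start). Within 5 kb of its start LHX3 varies between 2.82% and 45.8% in the vehicle control, and the next 6 windows are under 10%; at DLX1 a single window reaches 28.3% after etoposide and 19.7% after theophylline.

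The 4 chemicals were then compared with the vehicle control over the member windows. The mean β-value of all 605 windows was 42.4% in the vehicle control, 42.8% with etoposide, 42.7% with propyl gallate, 43.3% with theophylline and 41.3% with 5-aza-dc. Relative to the vehicle control, etoposide differed by 0.374 percentage points (0.162 to 0.585), propyl gallate by 0.238 (0.0425 to 0.433), theophylline by 0.886 (0.687 to 1.09) and 5-aza-dc by -1.09 (-1.3 to -0.869). Over all windows of the table the differences were 0.513, 0.566, 0.975 and -1.03, so the means over all member windows had the same signs as those of the table. Over the 376 windows at the gene, etoposide (0.202, -0.0675 to 0.472) and propyl gallate (0.209, -0.0312 to 0.45) had intervals that included 0. Theophylline (0.802, 0.554 to 1.05) and 5-aza-dc (-1, -1.28 to -0.728) did not. In the CpG islands of the members, etoposide (-0.028) and propyl gallate (-0.127) lay below the vehicle control, with intervals that included 0 (-0.185 to 0.129 and -0.271 to 0.0169), while theophylline (0.312, 0.155 to 0.47) and 5-aza-dc (-0.666, -0.826 to -0.505) kept their directions. Over all CpG islands of the table the differences were 0.178, 0.176, 0.442 and -0.969 in the same order. Of these only the theophylline value lay within the interval of the member islands. With the calls pooled, etoposide (-0.282) and propyl gallate (-0.117) were also lower.

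The mean log2 β-value ratio to the vehicle control was taken over the 584 to 586 member windows above 0 in both libraries. It was -0.00572 (-0.0338 to 0.0224) with etoposide, -0.00939 (-0.0372 to 0.0185) with propyl gallate, 0.03 (0.000554 to 0.0577) with theophylline and -0.13 (-0.159 to -0.101) with 5-aza-dc. The intervals of etoposide and propyl gallate included 0. Their values turned positive with a pseudocount of 1 percentage point (0.00916 and 0.0126), as a median (0.00835 and 0.00471) and against the other 4 libraries (0.00485 and 0.00239). Over all windows it was 0.000985 with etoposide, 0.0023 with propyl gallate, 0.02 with theophylline and -0.04 with 5-aza-dc. This ratio weighs windows near 0 heavily, and 47.6% of the member windows but 9.61% of all windows were under 10%. The 5-aza-dc ratio was -0.35 in the member promoter windows and -0.08 in all windows that the table names promoter. These sets are unlike, with means of 2.76% and 44.9% in the vehicle control. Expressed as a difference, the member promoter windows fell by 0.448 percentage points after 5-aza-dc (-0.736 to -0.16) and differed by 0.143 with etoposide (-0.158 to 0.444), -0.127 with propyl gallate (-0.355 to 0.102) and 0.266 after theophylline (-0.0391 to 0.571). All windows that the table names promoter differed by more after 5-aza-dc (-0.973), and by 0.27 with etoposide, 0.281 with propyl gallate and 0.574 after theophylline.

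The 5-aza-dc library had the lowest β-value of the 5 in 38.7% of the member windows (35.1% of all windows), and the theophylline library the highest in 33.2% (26.8% of all windows). Within the low-methylated windows, those under 10%, the 5-aza-dc difference was -0.335 percentage points over the 288 member windows and -0.357 over all 27717. In the 34 member windows between 30% and 70% it was -4.06 (-5.58 to -2.54), and in all 11770 such windows -3 (-3.09 to -2.91), which lies within the interval of the members. In the 140 member windows of at least 90% it was -1.11 (-1.57 to -0.637), an interval that includes the -0.683 of the table. In the 30 member windows from 10% to 30% it was -1.13 (-2.21 to -0.0466), and in the 144 from 2% to 10% it was -0.559 (-0.788 to -0.331). The table's values in these 2 classes, -2.62 and -0.878, lay outside the members' intervals. Over all 4 chemicals and 6 classes the table's value lay outside the members' interval in 5 of 24 cases. The other 3 were theophylline from 2% to 10% (0.472 for the members, 0.11 for the table) and etoposide (2, against -0.228) and theophylline (2.03, against 0.448) from 10% to 30%. Without the DLX1 window described below these last 2 member values were 1.1 (0.0308 to 2.16) and 1.42 (0.412 to 2.42).

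Single windows were compared by a two-sided Fisher's exact test, whose p-values were adjusted by the Benjamini-Hochberg method over all 288391 windows; all adjusted p-values of windows that follow come from it. Each test compares 2 libraries and not 2 conditions. A window was called where the adjusted p was under 0.01, and a change of 10 percentage points or more was asked for in the counts that follow. By this rule 6 of the 605 member windows were higher and 2 lower after etoposide, against a background of 1.36% and 0.956% of all windows. The counts were 6 higher and 2 lower with propyl gallate (background 1.34% and 0.88%), 7 and 2 with theophylline (1.59% and 0.681%) and 4 and 10 with 5-aza-dc (0.876% and 2.76%). The member shares ran from 0.331% to 1.65%, but windows near 0 can hardly fall by 10 percentage points, and such windows were more frequent among the members. Among the 317 member windows of at least 10% the counts were 6 higher and 1 lower with etoposide (all such windows 1.5% and 1.05%), 6 and 2 with propyl gallate (1.47% and 0.968%), 5 and 2 with theophylline (1.75% and 0.747%) and 4 and 10 with 5-aza-dc (0.963% and 3.04%). There the member share was above the background in 4 of the 8 cases and below it in the other 4. The member windows had more calls than the median window of the table (740 to 940 against 398 to 499). A difference of at least 25 percentage points in either direction was reached by 2 member windows after etoposide (background 0.191%), 1 with propyl gallate (0.177%), 0 with theophylline (0.175%) and 1 after 5-aza-dc (0.309%).

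Without a minimum difference, 29 of the 605 member windows were called higher and 17 lower after etoposide (background 6.37% and 3.74%), 30 and 13 with propyl gallate (6.55% and 3.71%), 45 and 11 with theophylline (8.13% and 2.86%) and 16 and 57 after 5-aza-dc (3.55% and 10.4%). Among the 288 member windows under 10%, the calls were 4 higher and 3 lower after etoposide, where all low windows gave 2.32% and 2.98%. They were 4 and 4 with propyl gallate (2.44% and 3.02%), 12 and 3 with theophylline (3.28% and 2.19%) and 1 and 14 after 5-aza-dc (1.86% and 7.08%). The member shares after 5-aza-dc were 0.347% higher and 4.86% lower, both below those of all low windows, while the share higher after theophylline (4.17%) was above it.

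At the promoters, 7 of the 71 windows were called lower after 5-aza-dc (9.86%) and none higher. By the same definition 11.1% of the promoter windows of all genes were called lower and 3.16% higher, but these had a mean of 40.4% in the vehicle control. The OTX2 window at chr14:56817001-56818000 was at 1.61% in the vehicle control and at 0.475% in the 5-aza-dc library (exact test, adjusted p = 0.00164). The LHX9 window at chr1:197911001-197912000 was at 1.14% and 0.231% (exact test, adjusted p = 0.00137), and the SIX2 window at chr2:45010001-45011000 at 2.71% and 1.07% (adjusted p = 0.000821). The other 4 were at LHX3, LHX4, PAX3 and SIX3, and except at LHX3 none of the 7 moved by more than 2 percentage points. Theophylline had 3 promoter windows higher and 1 lower (all genes 6.86% and 3.51%), propyl gallate 2 and 1 (5.51% and 4.36%), and etoposide none in either direction (5.41% and 4.18%).

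By gene, over all its windows, the mean β-value lay below the vehicle control after 5-aza-dc for 23 of the 33 members, with an interval entirely below 0 for 14 and entirely above 0 for 1 (NKX2-2). After theophylline it lay above for 27 members, with an interval above 0 for 13 and below 0 for 1 (LHX5). Etoposide gave intervals above 0 for 4 members (PAX3, PAX9, DLX1 and NKX6-2) and below 0 for none. Propyl gallate gave intervals above 0 for 7 members (PAX7, LHX2, NKX2-2, OTX1, OTX2, EN1 and EN2) and below 0 for 2 (DLX3 and DLX4). Among the 26668 genes of the table with at least 3 windows, the interval lay above 0 for 6.84% and below 0 for 33.2% with 5-aza-dc, against 3.03% and 42.4% of the members. The shares of all genes were 33.3% above and 5.35% below with theophylline (members 39.4% and 3.03%), 23.7% and 8.76% with etoposide (12.1% and 0%) and 24.3% and 8.53% with propyl gallate (21.2% and 6.06%). The members had more windows per gene, a median of 11 against 8. Over all their windows, PAX9 and NKX6-2 were above the vehicle control after etoposide and theophylline and below it after 5-aza-dc, each time with an interval that left out 0. At the gene alone the NKX6-2 interval after etoposide included 0 (0.643, -0.177 to 1.46). With only windows at the gene, etoposide gave intervals above 0 for PAX9, SIX6 and DLX1 and below 0 for LHX6. The members above and below 0 there numbered 0 and 14 with 5-aza-dc, 8 and 1 with theophylline, and 5 and 1 with propyl gallate. No share of all genes was taken for windows at the gene alone, nor for the direction of a mean regardless of its interval. The counts at the gene, and the 23 and 27 members by direction, therefore have no background and show nothing particular to the members.

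**Figure D5:**
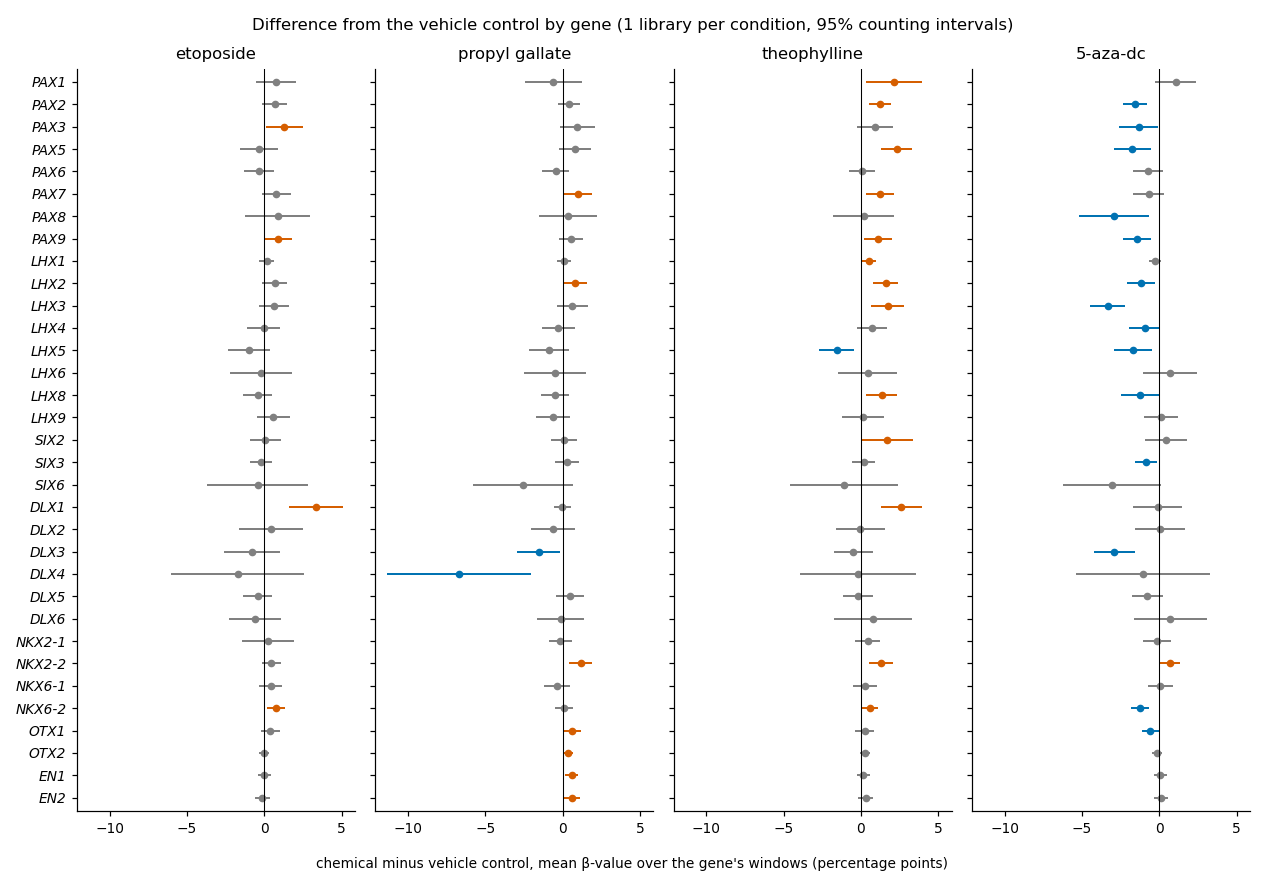
Difference in mean β-value over the gene's windows, chemical minus vehicle control (percentage points), with 95% counting intervals; orange and blue mark intervals entirely above and below 0. 5-aza-dc lies below 0 in 14 genes and theophylline above 0 in 13, and most differences are smaller than 3 percentage points.

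After 5-aza-dc the most negative differences were at LHX3, SIX6 and DLX3, with PAX8 close to DLX3. LHX3 fell from 51.2% to 47.8% over its 30 windows, a difference of -3.32 percentage points (-4.39 to -2.26), with 24 windows lower and 6 higher. Over all windows 58.4% were lower and 40.9% higher. Without a minimum difference 10 of the 30 LHX3 windows were called lower and none higher (all windows 10.4% and 3.55%). DLX3 went from 36% to 33.1% (-2.92, -4.19 to -1.65). SIX6 went from 9.51% to 6.44% (-3.07, -6.16 to 0.0278), with a shore window upstream of the gene at 51% on 51 calls in the vehicle control and 28.6% on 29 calls after 5-aza-dc (adjusted p = 0.168, Fisher's exact test). At the other end were PAX1 (1.06, -0.206 to 2.32), DLX6 (0.719, -1.6 to 3.04) and LHX6 (0.707, -0.985 to 2.4), all with intervals that included 0.

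The fall at LHX3 after 5-aza-dc was found at its promoters and downstream of it. The downstream promoter window (chr9:136201001-136202000) was at 33.9% in the vehicle control, 31.9% with etoposide, 32.1% with propyl gallate, 31.2% with theophylline and 25.8% with 5-aza-dc (adjusted p = 3.02e-06, Fisher's exact test). In this window the 5-aza-dc library was the lowest and the other 4 lay within 3 percentage points of each other. The shore window at chr9:136191001-136192000, at the downstream edge of the unmethylated interval, was at 51% in the vehicle control, 44.5% with etoposide, 42.9% with propyl gallate, 45.4% with theophylline and 33.7% with 5-aza-dc (exact test, adjusted p = 2.3e-12; 0.00194 for propyl gallate). In the neighbouring window at chr9:136189001-136190000 the vehicle control was the lowest, at 59% against 96.9% with etoposide (exact test, adjusted p = 0.000234), 94.9% with propyl gallate (adjusted p = 0.00423), 77.4% with theophylline and 66.7% with 5-aza-dc, on only 30 to 54 calls per library.

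After theophylline the largest rises by gene were at DLX1 (1.69% to 4.32%; 2.62, 1.37 to 3.88), PAX5 (61.7% to 64%; 2.32, 1.38 to 3.27) and PAX1 (30.4% to 32.5%; 2.14, 0.379 to 3.9). At DLX1 5 of 8 windows were higher and 3 lower, with the largest change (19.7 percentage points) in the shore window described below. PAX5 was higher in 33 of its 49 windows, against 59.9% of all windows. Without a minimum difference it was called higher in 8 and lower in none (all windows 8.13% and 2.86%). LHX5 was the lowest, from 10.6% to 9.04% (-1.56, -2.62 to -0.493), followed by SIX6 (-1.1, -4.54 to 2.34) and DLX3 (-0.496, -1.68 to 0.691), whose intervals included 0. The LHX5 value went with the island window at chr12:113470001-113471000, at 9.49% in the vehicle control, 5.45% with etoposide, 4.14% with propyl gallate, 1.38% with theophylline (exact test, adjusted p = 2.98e-05) and 3% with 5-aza-dc; the vehicle control was the highest of the 5. The PAX1 window at chr20:21707001-21708000, singled out after its values were seen, was at 4.79%, 6.46%, 4.53%, 15.6% and 6.59% in the same order (exact test, theophylline adjusted p = 1.68e-08).

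The other windows with the largest changes after theophylline lay in PAX8, PAX6 and around NKX6-2. The PAX8 island at chr2:113236001-113237000 was at 97.2% in the vehicle control, 92.4% with etoposide, 88.5% with propyl gallate, 76.2% with theophylline (exact test, adjusted p = 0.00145) and 95.7% with 5-aza-dc. The island at chr11:31796001-31797000 within PAX6, 21460 bases downstream of its start, was at 7.88%, 7.1%, 8.19%, 18.9% (exact test, adjusted p = 0.00868) and 5.32% in the same order. In each of these windows theophylline stood outside the range of the other 4 libraries.

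DLX1 had the largest rise by gene after etoposide (1.69% to 5.06%, a difference of 3.37, 1.67 to 5.06), but 4 of its 8 windows were higher and 4 lower. Its promoter mean was lower (-0.584, -1.06 to -0.105). The largest change was in the window at chr2:172091001-172092000. This shore window, which the table names exon, lies just downstream of DLX1 toward DLX2 and had 0 of 144 calls methylated in the vehicle control, 28.3% of 45 after etoposide (exact test, adjusted p = 2.48e-07), 2.08% of 132 with propyl gallate, 19.7% of 66 with theophylline (adjusted p = 7.81e-06) and 0 of 11 with 5-aza-dc. The etoposide and theophylline libraries were high and the other 3 low, and the count of the 5-aza-dc library allows up to 25.9% by the Wilson interval. DLX1 and DLX2 are transcribed toward each other and are expressed together in the precursors of forebrain interneurons. With this window low they shared a run of 27000 bases in the vehicle control, propyl gallate and 5-aza-dc libraries, and with it above 10% the run was divided into 11000 bases at DLX1 and 13000 or 15000 bases at DLX2 after etoposide and theophylline. After etoposide the next rises were at PAX3 (1.3, 0.19 to 2.41) and PAX9 (0.895, 0.0926 to 1.7), and the lowest members were DLX4 (-1.71, -5.95 to 2.52), LHX5 (-0.981, -2.26 to 0.298) and DLX3 (-0.801, -2.55 to 0.951).

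After propyl gallate DLX4 had the largest fall (32.5% to 25.8%; -6.73, -11.3 to -2.11), over 3 windows, with the shelf window 7530 bases downstream of its start at 89.6% on 67 calls in the vehicle control and 72.3% on 60 calls after propyl gallate (adjusted p = 0.0624, Fisher's exact test). SIX6 (-2.57, -5.72 to 0.581) and DLX3 (-1.55, -2.9 to -0.213) followed. The largest rises were at NKX2-2 (1.68% to 2.85%; 1.17, 0.505 to 1.83), PAX7 (0.993, 0.143 to 1.84) and PAX3 (0.952, -0.0957 to 2). NKX2-2, a ventral spinal cord factor, was higher in 8 of its 10 windows, against 55.3% of all windows. Without a minimum difference none of the 10 was called higher and 1 was called lower (all windows 6.55% and 3.71%). Its promoter mean was 1.53% in the vehicle control and 1.29% with propyl gallate (-0.241, -0.667 to 0.185). Over all its windows the vehicle control was the lowest of the 5 libraries, with etoposide at 2.15%, theophylline at 2.99% and 5-aza-dc at 2.35%. At DLX4, SIX6 and DLX3 the vehicle control was the highest of the 5. In these genes a difference in the same direction after several chemicals carries the vehicle control library each time. Within PAX7, the intronic window at chr1:18685001-18686000 was at 34.3% in the vehicle control, 36.9% with etoposide, 51.9% with propyl gallate (exact test, adjusted p = 0.00119), 38.2% with theophylline and 39.1% with 5-aza-dc, and the intergenic window at chr1:18777001-18778000, downstream of PAX7, was at 74.3%, 83.8%, 98.4% (adjusted p = 0.00154), 85.7% and 83.8% in the same order. The PAX7 shelf window at chr1:18651001-18652000 was highest in the vehicle control, at 14%, with 2.43% with etoposide (exact test, adjusted p = 0.000522), 6.25% with propyl gallate, 4.1% with theophylline and 8.79% with 5-aza-dc.

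PAX2, a kidney and midbrain-hindbrain gene, had windows in which the vehicle control stood apart. At chr10:100707001-100708000, upstream of the start, the vehicle control was at 69.3%, below etoposide at 82.4%, propyl gallate at 84.2%, theophylline at 80.2% and 5-aza-dc at 81.3% (exact test, adjusted p = 0.00746 for 5-aza-dc). At chr10:100842001-100843000 it was at 94.1%, above etoposide at 81.4% (exact test, adjusted p = 0.00182), propyl gallate at 80.6% (adjusted p = 0.00408), theophylline at 90.1% and 5-aza-dc at 83.2%. In such windows a difference in the same direction after several chemicals carries the vehicle control library each time. The intronic window at chr10:100816001-100817000 was at 74.9% in the vehicle control, 90.5% with etoposide (exact test, adjusted p = 0.000501), 79.4% with propyl gallate, 81.2% with theophylline and 76.6% with 5-aza-dc.

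The 71 windows that carry the symbol NKX6-2 but lie away from it averaged 87.4% in the vehicle control and 86.1% in the 5-aza-dc library, and they supplied several of the largest single changes. The island at chr10:132768001-132769000 was at 97.8% in the vehicle control, 98.7% with etoposide, 94.4% with propyl gallate, 100% with theophylline (28 calls) and 69.7% with 5-aza-dc (exact test, adjusted p = 1.12e-08). The shore at chr10:132746001-132747000 was at 88.6%, 89.8%, 71.7% (exact test, adjusted p = 0.000653), 77.9% and 69.9% (adjusted p = 0.000392) in the same order. In the island window the 5-aza-dc library alone was low, and in the shore window it was low together with the propyl gallate and theophylline libraries. At chr10:132735001-132736000 the vehicle control was the lowest, with 72.9% against 82.2%, 83.4%, 86.1% (exact test, adjusted p = 1.32e-07) and 84.7% (adjusted p = 2.13e-05). At chr10:132663001-132664000 the vehicle control was at 79.2%, etoposide at 100% on 30 calls, propyl gallate at 86.4%, theophylline at 60.3% (exact test, adjusted p = 0.000376) and 5-aza-dc at 93.3% (adjusted p = 0.003). The island at chr10:132757001-132758000 went from 98.6% to 89.2% after etoposide (exact test, adjusted p = 0.000171), with propyl gallate at 94%, theophylline at 99.5% and 5-aza-dc at 90.4%.

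The largest single changes depended on the number of calls. With all calls divided by 2, to allow for calls that come from the same DNA molecule, 4 of the 24 changes named by their size kept an adjusted p under 0.01. These were DLX1 after etoposide, the NKX6-2 window at chr10:132735001-132736000 after theophylline, and the windows at chr10:132768001-132769000 (NKX6-2) and chr9:136191001-136192000 (LHX3) after 5-aza-dc.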

How the data were processed

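Genomic DNA of 5 libraries was analysed, 1 per condition, grouped by the treatment label. Per the submitters' processing notes, reads were handled with FastQC 0.11.7, Trim Galore 0.5.0, Bismark 0.20.0, SAMtools 1.9 and methylKit 1.10.0 on hg38. The authors summed cytosine calls over windows of 1000 bases, removed low and extreme coverage, and scaled coverage between libraries. The deposited β-value (beta value) is the fraction of methylated calls, and the deposited coverage and call columns hold a count of cytosine calls in the vehicle control. In the other 4 libraries the deposited values are calls scaled by the authors and rounded, a score rather than a count, so the calls before scaling were recovered with factors of 1.18, 1.09, 1.15 and 1.21, which returned 100% of windows; this replaces the planned use of the counts as deposited.

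A two-sided Fisher's exact test ran over all windows, adjusted by the Benjamini-Hochberg method, with Python 3.11.15, numpy 2.4.6, pandas 2.3.3, scipy 1.17.1, numba 0.67.0 and matplotlib 3.10.9. Mean differences have a 95% interval from the binomial variance of each window's calls, and single windows a Wilson interval. Genes named in full were the 6 highest and 6 lowest promoter means in the vehicle control, for each chemical the 3 largest rises and falls of windows called at 0.01 where neither library had under 30 calls, and for each chemical the 3 most positive and most negative gene differences over at least 3 windows. The members and lists were chosen with earlier results of these data known. The low-methylated runs were defined after seeing the data. Only the exact test of single windows was tried on simulated data, in which calls were independent. The intervals, the runs and the recovery of calls were not tried in this way. Alternatives were pooled calls, means per gene, a minimum of 30 calls, either membership rule alone, islands alone, calls divided by 2, other thresholds, a pseudocount, another reference and RefSeq's gene starts (GRCh38.p14). The reference genome at hand was of another build and was not used.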

Additional observations from a re-analysis of the deposited data

How the results depend on the processing

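With 1 library per condition no spread between replicates could be measured and no library could be left out within a condition. No paired analysis was possible because each condition has 1 library. The mean β-value of the member windows in the vehicle control (42.4%) depended on how windows were weighted: it was 23.8% with all calls pooled, 26.1% as a mean per gene, 41.7% with at least 30 calls in all 5 libraries, 45.2% by symbol alone, 28.3% by overlap with the gene alone and 12.7% in islands. The etoposide difference (0.374 percentage points) reversed with pooled calls (-0.282) and in islands (-0.028). The propyl gallate difference (0.238) reversed with pooled calls (-0.117), per gene (-0.183) and in islands (-0.127). Theophylline (0.886) was at 0.63 per gene and 0.312 in islands. 5-aza-dc (-1.09) was at -2.06 with pooled calls, -0.787 per gene, -0.666 in islands and -1.46 against the mean of the other 4 libraries. The mean log2 ratio of theophylline was 0.061 with a pseudocount of 1 percentage point and 0.0698 against the other 4 libraries, and that of 5-aza-dc -0.0757 with the pseudocount and -0.0533 as a median. Windows called at 10 percentage points (8, 8, 9 and 14 after etoposide, propyl gallate, theophylline and 5-aza-dc) numbered 2, 0, 2 and 4 with the calls divided by 2, and 2, 1, 0 and 1 at 25 percentage points. For theophylline they numbered 14 at an adjusted p under 0.05 and 5 by symbol alone. When only adjoining windows were joined, an alternative chosen after seeing the data, the median low-methylated run was 4500 bases and 3 members reached 10000 bases. The other 48 planned values moved less than the limits set for a change, but 6 of them had the other sign: the log2 ratios of etoposide and propyl gallate, whose intervals included 0, were positive under each of their 3 alternatives. With RefSeq's starts, also chosen after seeing the data, 30 members again had a promoter under 10%. The causes of these shifts were not tested.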
